A study of Mus musculus with 4 samples.

Results

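The nuclei described here carry thick ascending limb RNA, with little RNA of 3 genes that mark the cortical stretch of this part of Henle's loop. They were chosen by 4 conditions on unique molecular identifiers (UMIs, counted RNA molecules): at least 3 UMIs of Slc12a1, at most 2 of Slc12a3, at most 2 of Aqp2, and at most 2 of Enox1, Thsd4 and Slit2 together. The rule found 3168 members among 27343 kept nuclei (11.6%), 1807 in control and 1361 in knockout kidneys. The last condition left Slit2 in many members: a UMI of it was found in 48.3 and 57.5% of members in controls 1 and 2. In knockouts 1 and 2 it was found in 55.2 and 65.5%. Enox1 was found in at most 4.57% and Thsd4 in at most 2.25% of the members of any mouse. The 6 genes of the rule chose the members, so their levels are a description and received no test. The nearest relatives are 2623 nuclei that met the first 3 conditions but held at least 3 UMIs of Enox1, Thsd4 and Slit2 together, called Enox1-high nuclei below.

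The thick ascending limb reclaims salt without water and so builds the salt gradient of the medulla, on which urine concentration depends. Sodium, potassium and chloride enter the cell from the tubule through Slc12a1 (NKCC2), potassium returns to the lumen through Kcnj1 (ROMK), chloride leaves on the blood side, and the sodium pump, with Atp1b1 and Fxyd2 among its parts, drives the cycle. The segment also secretes uromodulin (Umod) and epidermal growth factor (Egf), and its medullary and cortical stretches differ in claudins, the proteins that set which ions pass between cells.

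The study removed Tfap2a, which encodes the transcription factor AP-2 alpha, from the collecting duct system of mice and sequenced kidney nuclei with the 10x Genomics 3′ v3.1 chemistry. The knockout mice carried the genotype Cre+,Tfap2aFlox/Flox and the controls Cre-,Tfap2aFlox/Flox, so the floxed alleles were present in both groups, and all 4 mice were males of 12 weeks. Cre was driven by the Hoxb7 promoter, which is active in the ureteric bud lineage that forms collecting ducts and not in the loop of Henle, so the members are neighbours of the targeted cells. The tissue was a middle slice of the kidney trimmed of cortex, and each mouse gave 1 library, with 2 mice in each group.

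The libraries held 42138345 UMIs for control 1, 24998797 for control 2, 44964099 for knockout 1 and 22179410 for knockout 2. Values for the 4 mice stand in that order throughout, and levels are in CPM, scaled to the UMIs summed over each mouse's members, 2010231, 1889238, 1351301 and 1464419. Members numbered 934, 873, 679 and 682, with median depths of 1867, 1960, 1741 and 1891 UMIs and medians of 1226, 1259, 1174 and 1237 genes. Of the genes listed in the files, 6256 had no UMI in any kept nucleus.

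Libraries differed in ways that do not follow genotype. Replicate 1 of each group carried more free RNA: the members' median count over 12 proximal tubule genes was 35, 13, 46 and 4 UMIs. An estimate from near-empty droplets put the free share of member UMIs at 40.1, 28.5, 42.8 and 20.6%. The median percentage of mitochondrial UMIs in members was 1.86, 0.792, 1.36 and 0.571. Knockout 2 stood apart in clock genes, described with that list. Any pair of libraries shared between 7 and 18 kept barcodes. Scrublet scores, cut in each library at an assumed doublet share, flagged 88, 49, 59 and 53 members, 249 in all, which were kept in the main values. That was 9.42, 5.61, 8.69 and 7.77% of members. Of all kept nuclei it was 6.05, 4.18, 6.16 and 4.69%, shares that the cut set in advance.

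The label was checked against the other marker genes named for these nuclei, and against markers of the cortical stretch. Umod, the gene of uromodulin, stood at 6744, 7609.9, 9316 and 5812 CPM, far above its 228, 205, 253 and 84.4 CPM in proximal tubule reference nuclei. That reference was 11858 nuclei with at least 10 UMIs of proximal tubule genes other than Kap and none of Slc12a1, under a gate chosen after seeing the data and described with the last comparison. Tmem207, a membrane protein tied to magnesium handling, stood at 405, 360.5, 517 and 642 CPM, Ptger3, a prostaglandin E2 receptor, at 1325, 1646, 1125 and 1179 CPM, and Cacnb4, a calcium channel subunit, at 2367, 2468, 2242 and 2725 CPM. All of these markers were well above the proximal tubule reference in every mouse.

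Against the Enox1-high nuclei of the same mouse the markers did not all point one way. Tmem207 and Cacnb4 were higher in members in nearly every mouse, Enox1-high nuclei holding 278, 363, 281 and 461 CPM of Tmem207 and 2064, 2287, 2039 and 2381 CPM of Cacnb4. The small exception was control 2, where the Tmem207 levels were almost equal. Cldn10, the claudin of sodium-permeable junctions, was at 1498, 1019.5, 1255 and 1169 CPM in members and 1029, 771, 917 and 833 CPM in Enox1-high nuclei, higher in members of all 4 mice. Umod, in contrast, was lower in members than in Enox1-high nuclei (9506, 9157, 11930.0 and 8491 CPM) in all 4 mice. Egf was lower in members as well, 4123, 5219, 5635 and 4188 CPM in members and 10507, 9182, 11956 and 9331 CPM in Enox1-high nuclei. Ptger3, at 1258, 1525, 1027 and 1256 CPM in Enox1-high nuclei, was close to equal. Umod and Ptger3 therefore marked the whole thick ascending limb here, and the medullary side of the label rested on Cldn10, Cacnb4, Tmem207 and the rule itself.

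Further markers from the lists were looked up after their values had been seen. Slc6a12, the betaine carrier that cells in concentrated surroundings use, was at 29.4, 11.6, 19.98 and 17.1 CPM in members and 6.91, 2.40, 2.93 and 11.6 CPM in Enox1-high nuclei, higher in members in each mouse. Akr1b3, the sorbitol enzyme of the same response, read 117, 77.8, 86.6 and 79.2 CPM in members and 131, 168, 79.9 and 60.5 CPM in Enox1-high nuclei. It was lower in members of both controls and higher in members of both knockouts. The summed list of that response, given below, was higher in members of all mice but control 2. Cldn16, the claudin needed for magnesium and calcium reabsorption in the cortical stretch, was at 32.3, 40.2, 48.1 and 51.2 CPM in members and 86.4, 97.2, 114 and 78.1 CPM in Enox1-high nuclei, lower in members in each mouse. Markers of macula densa cells, which share Slc12a1, summed to 43, 21, 15 and 36 UMIs in members. That was 21.4, 11.1, 11.1 and 24.6 CPM, against 169, 93.6, 145 and 145 CPM in Enox1-high nuclei. Robo2 made up most of the sum, at 33, 17, 9 and 28 UMIs, and the 5 richest members of each mouse held 24, 16, 7 and 25 of them. Members held 3, 1, 1 and 2 UMIs of Nos1 and 0, 1, 1 and 2 of Pappa2, and Oxtr was listed at 0.

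**Figure D1:**
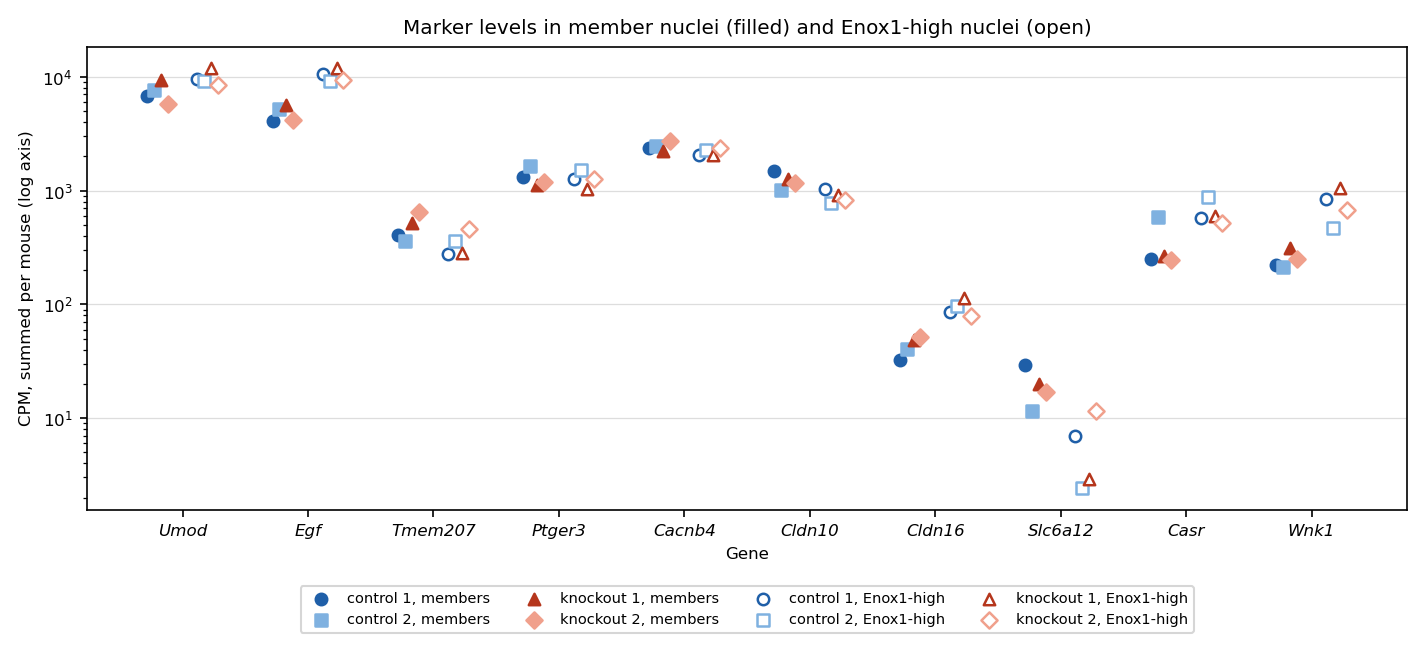
Levels of 10 marker genes in CPM on a log axis, summed per mouse, with member nuclei as filled and Enox1-high nuclei as open symbols, and 1 symbol for each of the 4 mice. Cldn10 and Slc6a12 lie higher, and Umod, Egf, Cldn16, Casr and Wnk1 lower, in the members of every mouse.

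Nuclei at the edges of the rule differed by which edge it was. The nuclei with exactly 3 UMIs of Slc12a1 were few, 26, 19, 22 and 9, and held 928, 999.8, 3759 and 928 CPM of Umod with 1656, 1936, 1879 and 1331 CPM of Lrp2, the proximal tubule receptor megalin. Just outside, 140, 85, 111 and 48 nuclei had exactly 2 Slc12a1 UMIs and 609, 573, 1033 and 285 CPM of Umod with 1680.5, 2077, 1932 and 1844 CPM of Lrp2. Both sides of that edge were thus far below the members' own Umod level and above their Lrp2 level of 387, 356, 501 and 259 CPM. At the other edge the sides were closer: nuclei with 2 UMIs of Enox1, Thsd4 and Slit2 together held 7762, 8121, 11171 and 6215 CPM of Umod, and nuclei with 3 such UMIs held 8598, 8604, 10814 and 7063 CPM. Egf was nevertheless higher at 3 than at 2 such UMIs in all 4 mice, 6723, 6471, 7988 and 5722 against 5005, 5835, 7264 and 4582 CPM, and Cldn10 was lower in all 4.

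Members also differed among themselves, which was described on members thinned to 1000 UMIs each. With fewer than 10 Slc12a1 UMIs, members held a mean of 5.16, 4.52, 7.77 and 3.63 Umod UMIs, with 10 to 19 they held 7.78, 8.45, 10.4 and 6.74, and with 20 or more 7.22, 8.89, 9.87 and 6.28. Umod was thus lowest in the first class of every mouse and highest in the middle class of all mice but control 2. Erbb4, a receptor of the epidermal growth factor family, climbed through the 3 classes in every mouse, from 3.39, 4.17, 3.95 and 3.55 UMIs over 7.29, 9.48, 7.65 and 7.21 to 8.47, 9.67, 8.30 and 7.93. The summed proximal tubule genes ran the other way, from 27.2, 16.4, 34.5 and 12.4 UMIs to 18.6, 6.75, 24.8 and 2.53. Cldn10 and Cldn16, which mark separate cells in the cortical stretch, were met together in 24, 21, 13 and 28 thinned members, where unrelated counts would give 26.9, 21.0, 20.8 and 26.6.

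The first question of the genotype comparison was whether these nuclei made up a different share of each kidney slice. Members were 12.1% of kept nuclei in control 1 (95% exact binomial interval 11.4 to 12.8) and 16.1% in control 2 (15.1 to 17.1). In the knockouts they were 8.49% (7.89 to 9.12) and 11.0% (10.3 to 11.8), so both knockout shares lay below both control shares. The intervals treat nuclei as independent draws and do not measure the spread between mice. The difference of means, knockout minus control, was -4.31 percentage points against a standard deviation of 2.83 in controls and 1.80 in knockouts (n = 2 each). The two-sided exact permutation test gave p = 0.333, and with 2 mice against 2 it cannot go below 0.33. Among nuclei outside a proximal tubule gate, which left out most proximal tubule nuclei, the member shares were 34.6, 32.0, 29.4 and 23.4%, a difference of -6.88 percentage points (exact permutation p = 0.333). That gate let in nuclei of the distal nephron, and outside a stricter one, chosen after seeing the data and described with the last comparison, the shares were 21.6, 22.8, 16.8 and 20.8%, a difference of -3.39 percentage points (exact permutation p = 0.333). The size of the difference thus depended on the gate. Among thick ascending limb nuclei of both kinds, members were 62.1, 55.6, 54.6 and 46.2%, and 79.7, 78.1, 72.4 and 70.8% after thinning to 1000 UMIs. Both of these shares were again lower in both knockouts than in both controls, each with an exact permutation p of 0.333. After thinning kept nuclei of at least 1000 UMIs to that depth, members were 15.3, 22.5, 11.4 and 16.8% of them, so knockout 2 lay above control 1 and the groups overlapped (exact permutation p = 0.667). Among nuclei under 1% mitochondrial UMIs the member shares of kept nuclei, 5.68, 14.3, 3.65 and 10.2%, overlapped between groups (exact permutation p = 0.667).

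The main comparison asked which genes of the members differed between knockout and control kidneys. The test called 3, and their number depended on the setting. Sgcz, which encodes zeta-sarcoglycan of the membrane-spanning sarcoglycan family, was abundant in both controls and fell to a small remainder in both knockouts. Npas3, a transcription factor of the PAS family, fell from a low level to nearly none. Col5a2, a chain of type V collagen, rose from nearly none to a low level. Period circadian genes were higher in both knockouts without passing the test.

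Tfap2a itself was scarce in these nuclei: 14, 7, 4 and 4 UMIs, or 6.96, 3.71, 2.96 and 2.73 CPM. Both knockout values lay below both control values, with a log2 fold change of -0.91 (standard error 0.64), an adjusted p of 1.00 in edgeR, and too few molecules to show a difference. Counting from the 3′ end does not check whether the floxed exons were lost. Its relative Tfap2b, the AP-2 factor of the distal nephron, stood at 334, 382, 358 and 450.0 CPM, with overlapping groups and a log2 fold change of 0.16.

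The test was edgeR's quasi-likelihood fit on the sums per mouse, with Benjamini-Hochberg adjustment over 14162 genes of at least 10 UMIs, and a gene was called at an adjusted p under 0.05. It called 2 genes lower (0.0141% of those tested) and 1 higher (0.00706%) in the knockouts, 3 in all (0.0212%). Before adjustment, 301 genes were lower (2.13%) and 194 higher (1.37%) at p under 0.05, 495 together (3.50%). Both knockouts lay below both controls for 2263 genes (16.0%) and above them for 2051 (14.5%). DESeq2 on the same sums called 3 lower and 3 higher: the same 3 genes and, in addition, Ranbp3l, Nat8f6 and Per2. With doublets, members over 1% mitochondrial UMIs, or estimated free RNA taken out, no gene was called in either direction. Other settings called more: 43 lower and 18 higher with no filter on low counts, and 67 (0.473%) and 26 (0.184%) with the replicate number as a block, for which the labels give no pairing.

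For Sgcz, members held 4185, 3756, 56 and 161 UMIs, or 2082 and 1988 CPM in the controls and 41.4 and 109.9 CPM in the knockouts. The 2 controls were nearly equal, both knockouts were far below them, and knockout 2 held the higher remainder. Near-empty droplets read 81.5, 62.3, 47.6 and 18.5 CPM, above the members in knockout 1 and below them in the other 3 mice, and the part of free RNA in the remainder was not tested. The ratio of the group means was 26.9, and the log2 fold change -4.76 (standard error 0.46, n = 2 each, edgeR adjusted p = 0.0328). The gene (ENSMUSG00000039539) spans chromosome 8, 37517840 to 38661705 of GRCm38.p6, by RefSeq. A UMI of Sgcz was found in 76.1, 80.4, 6.33 and 11.0% of members, so most control members and few knockout members carried it. After thinning to 1000 UMIs those shares were 67.5, 71.1, 3.65 and 6.16%. Proximal tubule reference nuclei, deeper at medians of 3002, 3693, 2958 and 3388 UMIs, carried one in 2.31, 3.08, 1.39 and 2.34%, below the share in the knockout members of either mouse.

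Within the thick ascending limb, Sgcz ran against the genes that the rule keeps low. In controls it stood at 2119 and 1963 CPM in members with no UMI of Enox1, Thsd4 and Slit2, and at 227 and 365 CPM in nuclei with 10 or more. Enox1-high nuclei as a whole held 935, 1318, 39.6 and 69.1 CPM, and there Sgcz was the 1 gene called lower in the knockouts (0.00711% of 14064 tested, log2 fold change -4.36, edgeR adjusted p = 0.00622). So in controls Sgcz was highest on the medullary side of the rule, and in knockouts it was low on both sides. The calls of Sgcz, Npas3 and Col5a2 in members held without any 1 mouse, for Sgcz with an adjusted p of at most 5.42e-05 in each of those fits. The Sgcz call was lost with doublets left out (adjusted p = 0.143), with members under 1% mitochondrial UMIs (0.0800), with edgeR's own filter on low counts (0.0588), with estimated free RNA subtracted (0.265) and, chosen after seeing the data, with the members above the median in proximal tubule UMIs left out (0.106), although the log2 fold change stayed between -5.62 and -4.23 in every setting.

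Col5a2 went the other way. Members held 2, 1, 33 and 34 UMIs, or 0.995 and 0.529 CPM in the controls and 24.4 and 23.2 CPM in the knockouts. Both knockouts were close together and the controls held almost nothing, with a log2 fold change of 4.81 (standard error 0.53, n = 2 each, edgeR adjusted p = 0.0328). The gene (ENSMUSG00000026042) spans chromosome 1, 45374331 to 45503282 of GRCm38.p6. Its UMIs lay in few nuclei: 0.214, 0.115, 2.50 and 3.96% of members had one, and 0, 0, 1.43 and 2.55% after thinning, against 0.205, 0.126, 0.278 and 0.276% of the deeper proximal tubule reference nuclei. In the controls the share was thus at the level of nuclei that should lack the gene, and in the knockouts above it. Col5a2 was far more abundant in Enox1-high nuclei of the knockouts, where it read 0, 0, 126 and 89.2 CPM and was the 1 gene called higher (0.00711%, edgeR adjusted p = 0.00622). In knockout nuclei it climbed with the excluded genes, from 1.85 and 17.1 CPM at 0 UMIs of Enox1, Thsd4 and Slit2 to 249.9 and 197 CPM at 10 or more. Members with no UMI of those genes held too few Col5a2 molecules to be tested. The call held in 8 of 15 alternative settings, with the log2 fold change between 4.48 and 8.21 in all of them.

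**Figure D2:**
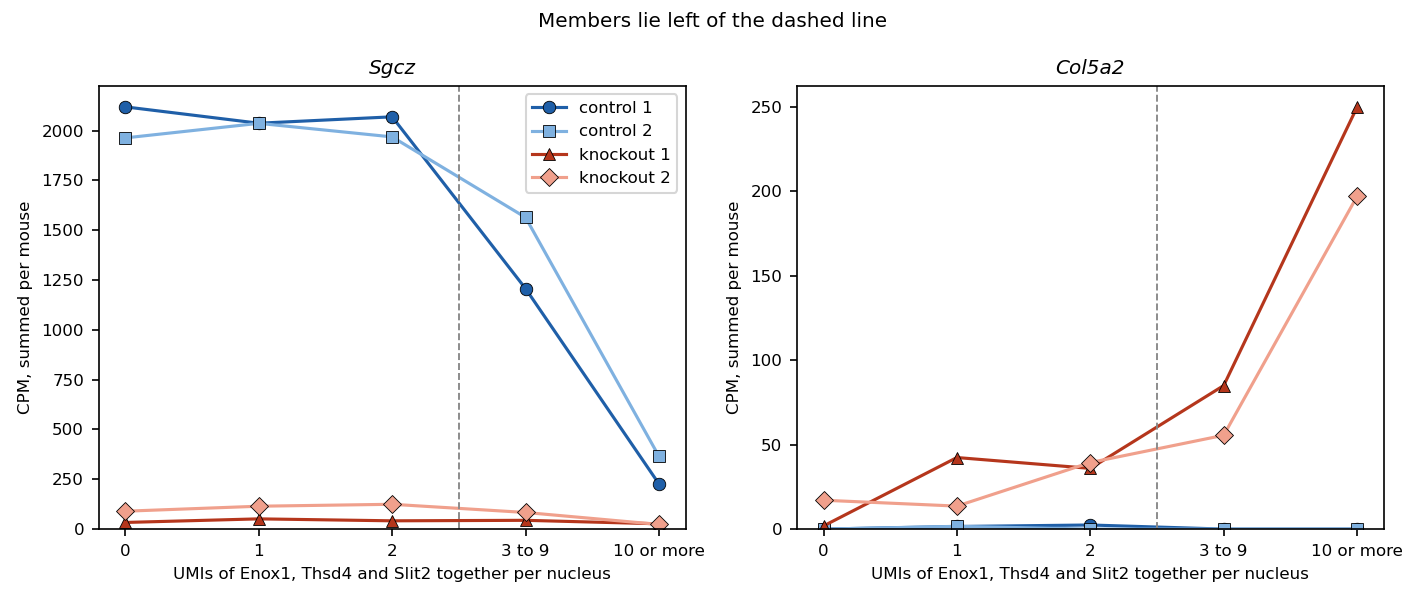
Levels of Sgcz and Col5a2 in CPM, summed per mouse, in thick ascending limb nuclei grouped by their UMIs of Enox1, Thsd4 and Slit2 together, with 1 line for each of the 4 mice and members left of the dashed line. Sgcz falls along the axis in both controls and is low in both knockouts, while Col5a2 climbs along it in both knockouts and is near 0 in both controls.

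Npas3 rested on few molecules. Members held 56, 55, 2 and 2 UMIs, or 27.9, 29.1, 1.48 and 1.37 CPM, so the controls were nearly equal and the knockouts nearly without it. Its log2 fold change was -4.27 (standard error 0.47, edgeR adjusted p = 0.0328). The gene (ENSMUSG00000021010) spans chromosome 12, 53248026 to 54072173 of GRCm38.p6. The proximal tubule reference held 234, 166, 1.99 and 1.66 CPM, far more than members in the controls and nearly the same in the knockouts, and there it was the 1 gene called lower in the knockouts (0.00569% of 17561 tested, edgeR adjusted p = 0.0161). Near-empty droplets read 33.7, 14.0, 4.76 and 1.95 CPM, a level like that of the members, and the part of free RNA in the result was not tested. With called doublets left out, the adjusted p was 1.00, and the call held in 9 of 15 alternative settings, with the log2 fold change between -5.54 and -3.36 in all of them.

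Because fewer than 5 genes were called in either direction, the 8 genes with the lowest unadjusted p each way are given as values. Below the called pair, Ranbp3l, a Ran-binding protein, stood at 1693 and 1217 CPM in the controls and 578 and 395 CPM in the knockouts. Both knockouts were below both controls, and the log2 fold change was -1.59. In Enox1-high nuclei it read 754, 710.2, 261 and 307 CPM, again lower in both knockouts, and in the proximal tubule reference 218, 166, 178 and 158 CPM, with the groups close to each other. In controls Ranbp3l, like Sgcz, declined with the excluded genes, from 1818 and 1222 CPM at 0 UMIs to 224 and 269 CPM at 10 or more.

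Gfod1 stood at 16.9, 25.4, 2.96 and 2.05 CPM on 34, 48, 4 and 3 UMIs. Plpp3, an enzyme that breaks down signalling lipids outside the cell, stood at 179, 209, 82.9 and 94.9 CPM. Fam107a, an actin-associated protein, stood at 134, 195, 62.9 and 74.4 CPM. In each of these the knockouts lay below the controls with a wide gap. Gm17225, an unnamed transcript, read 67.7, 82.0, 34.0 and 22.5 CPM, and mt-Atp8, a mitochondrially encoded subunit of ATP synthase, 60.2, 58.8, 23.7 and 24.6 CPM. The sum of all mitochondrial genes in members was 19311, 8883, 13936 and 6675 CPM and so had a different order from mt-Atp8; its part in the result was not tested.

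Among the genes higher in the knockouts, 4 were more abundant in proximal tubule reference nuclei than in members of every mouse, Per2, given with the clock genes, and 3 others. Nat8f6, of the NAT8 acetyltransferase family, read 7.96, 5.82, 41.4 and 34.1 CPM in members and 65.4, 62.2, 191 and 294 CPM in that reference. Vmn1r20, of the vomeronasal receptor family, read 1.99, 2.65, 11.8 and 13.7 CPM in members and 15.5, 31.8, 54.2 and 93.9 CPM in the reference. The unnamed transcript 4930533I22Rik read 4.97, 6.88, 16.3 and 32.8 CPM in members and 41.5, 97.5, 128 and 251 CPM in the reference. These 3 were higher in both knockouts in either kind of nucleus. Near-empty droplets held 18.6, 9.0, 77.8 and 104 CPM of Nat8f6, more than the members of the same mouse, and the part of free RNA in these values was not tested. Coq10b, a coenzyme Q binding protein of mitochondria, read 46.8, 40.2, 82.9 and 145 CPM, highest in knockout 2.

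**Figure D3:**
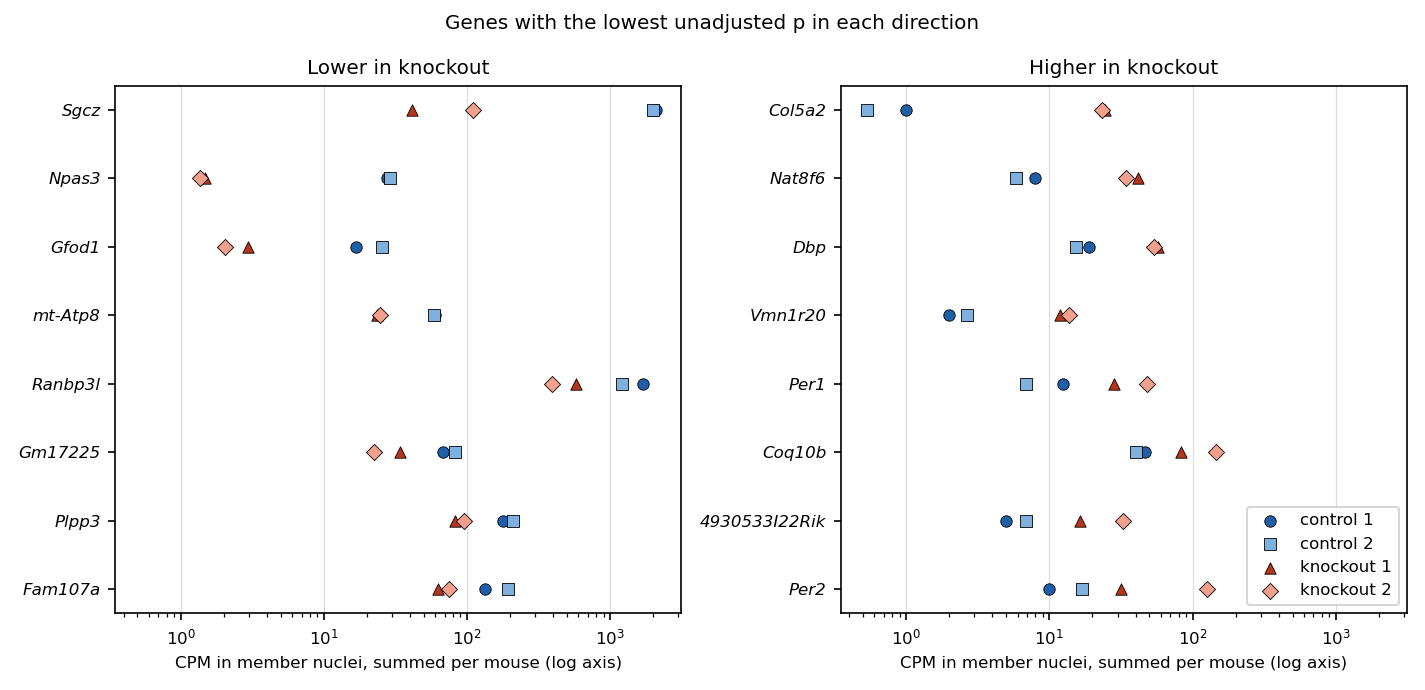
Levels in member nuclei, in CPM on a log axis and summed per mouse, of the 8 genes with the lowest unadjusted p in each direction, with 1 symbol for each of the 4 mice. The knockout symbols lie on one side of the control symbols for all 16 genes, and the gap is widest for Sgcz, Npas3 and Col5a2.

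The remaining 3 of the 8 were clock genes. Dbp, a transcription factor that the circadian clock drives, stood at 18.9 and 15.3 CPM in the controls and 57.7 and 53.9 CPM in the knockouts. Per1 and Per2, repressors in the core clock loop, stood at 12.4, 6.88, 28.1 and 47.8 CPM and 9.95, 16.9, 31.8 and 126 CPM. Both knockouts were above both controls for each, and knockout 2 was far above the other 3 mice in Per2. Their log2 fold changes were 1.69, 1.95 and 2.55 (standard errors 0.27, 0.40 and 0.58), and none passed the edgeR test. Without knockout 2 the log2 fold change of Per2 was 1.24 (adjusted p = 0.796), and without knockout 1 it was 3.21 (adjusted p = 5.42e-05).

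Of 17 clock genes tested, 7 were higher in both knockouts than in both controls, where 14.5% of all genes were, and 3 were lower, where 16.0% were. At unadjusted p under 0.05, 6 were higher and 3 lower, where 1.37% and 2.13% of all genes were, and the median log2 fold change of the list was 0.66 against 0.00 over all genes. The naming rule gave Rora, a nuclear receptor, at 410.4, 394, 303 and 412 CPM, Clock, a core activator, at 91.5, 115, 99.2 and 102 CPM, Tef, a relative of Dbp, at 101, 101, 171 and 249 CPM, and Nr1d2, a repressor, at 109, 78.9, 149 and 166 CPM. Tef and Nr1d2 were higher in both knockouts, while Rora and Clock overlapped. Chosen after its values were seen, the activator Arntl ran opposite to Per2, at 30.3, 31.8, 19.98 and 2.73 CPM, lowest by far in knockout 2. In Enox1-high nuclei Per2 read 12.4, 12.6, 33.0 and 126 CPM and in proximal tubule reference nuclei 33.2, 36.3, 57.9 and 139 CPM, with knockout 2 highest in both. Near-empty droplets gave the same order, 10.6, 12.3, 19.05 and 81.9 CPM. The labels give no time of day for any kidney.

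Several clock genes are driven through an E-box, the sequence CACGTG, bound by Clock with its partner. It was looked for on both strands, which read alike for this palindrome, in RefSeq promoters of GRCm38.p6 (250 bases before to 50 after each start). It lay in 2349 of 32851 promoters (7.15%) and in 6 of 21 promoters found for 16 clock genes. Of the 7 clock genes higher in both knockouts, 3 held a match: Per1 in 1 of 2 promoters, Cry1 and Tef. Dbp, Hlf and Nr1d2 held none, Per2 was not searched, and Ciart, whose groups overlapped, held 3. The promoters shown are those of the 3 genes with a match, with the E-box in capitals, so they do not stand for all the higher genes; a match is only a match of letters.
Per1, chr11:69098699-69098998, plus strand: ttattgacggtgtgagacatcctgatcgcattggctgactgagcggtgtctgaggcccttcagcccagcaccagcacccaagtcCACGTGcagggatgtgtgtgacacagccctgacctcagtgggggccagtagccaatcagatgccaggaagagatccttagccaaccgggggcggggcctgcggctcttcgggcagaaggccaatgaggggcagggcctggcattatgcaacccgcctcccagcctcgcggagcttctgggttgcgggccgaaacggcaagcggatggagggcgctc
Cry1, chr10:85185005-85185304, minus strand: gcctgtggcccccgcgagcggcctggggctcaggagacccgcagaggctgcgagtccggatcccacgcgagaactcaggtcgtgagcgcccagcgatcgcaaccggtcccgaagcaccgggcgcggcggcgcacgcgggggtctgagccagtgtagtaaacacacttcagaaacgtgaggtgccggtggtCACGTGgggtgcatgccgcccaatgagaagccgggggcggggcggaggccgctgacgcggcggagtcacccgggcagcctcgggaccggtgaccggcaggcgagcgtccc
Tef, chr15:81802423-81802722, plus strand: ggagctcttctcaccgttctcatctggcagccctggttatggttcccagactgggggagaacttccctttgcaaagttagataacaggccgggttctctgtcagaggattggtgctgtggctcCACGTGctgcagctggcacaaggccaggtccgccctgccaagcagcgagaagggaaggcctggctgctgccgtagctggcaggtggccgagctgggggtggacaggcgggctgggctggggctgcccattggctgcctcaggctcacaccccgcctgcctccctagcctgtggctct
Tef, chr15:81811164-81811463, plus strand: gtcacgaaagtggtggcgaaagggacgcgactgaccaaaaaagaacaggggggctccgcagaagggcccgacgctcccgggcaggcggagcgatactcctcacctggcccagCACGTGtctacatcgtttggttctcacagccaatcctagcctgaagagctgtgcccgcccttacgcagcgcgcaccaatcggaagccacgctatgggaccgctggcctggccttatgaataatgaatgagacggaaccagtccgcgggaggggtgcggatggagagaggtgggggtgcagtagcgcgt
Cry1, a repressor shown here for its promoter after its values were seen, stood at 1.99, 4.23, 5.92 and 15.0 CPM.

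Genes that respond to glucocorticoids, the adrenal steroid hormones, counted 12 tested, 5 higher and 2 lower in both knockouts, where 14.5% and 16.0% of all genes were. At unadjusted p under 0.05, 4 were higher and 0 lower, where 1.37% and 2.13% of all genes were. Per1, shared with the clock list, was among the 5 and among the 4. The median log2 fold change was 0.34. Fkbp5, a chaperone partner of the glucocorticoid receptor, read 160.2, 73.0, 199.8 and 263 CPM, higher in both knockouts. Mt1, a metallothionein, read 281, 314, 275 and 238 CPM, lower in both knockouts. Errfi1, a brake on growth factor receptors, and Klf9, a transcription factor, read 296, 190.0, 295 and 212 CPM and 249, 191, 205 and 157 CPM with overlapping groups. Knockout 2 was again highest in Fkbp5, while control 2 was lowest.

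The 28 lists together named 382 genes, of which 380 were in the files and 333 were tested, the others being genes of the rule or below 10 UMIs. None was called by edgeR in either direction, and DESeq2 called 1, Per2. Before adjustment 13 were lower (3.90%) and 15 higher (4.50%), where 2.13% and 1.37% of all genes were, so both shares were above those of all genes. The lists were chosen with earlier results of these data known, and of the 15, 6 were clock genes. Of the 333, 60 lay lower in both knockouts (18.0%) and 47 higher (14.1%), close to the 16.0% and 14.5% of all genes, and their median log2 fold change was -0.03 against 0.00. The lists are taken in turn by role, each with the genes of highest control level.

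Salt entry and exit came first among the roles. Of 18 genes tested, Slc12a1 being outside the test, 2 were lower and 4 higher in both knockouts (11.1% and 22.2%, against 16.0% and 14.5% of all genes), and the median log2 fold change was 0.15. Atp1b1, the beta subunit of the sodium pump, read 3593, 2438, 3382 and 4084 CPM, and Fxyd2, a regulator of the pump, read 5265, 2819, 4783 and 4103 CPM. For both genes control 2 was the lowest mouse, and the groups overlapped. Slc9a3, the sodium-hydrogen exchanger that also takes up bicarbonate here, read 685, 887, 542 and 579 CPM, lower in both knockouts. Summed over the list, Slc12a1 included, members held 31995, 28914, 28834 and 31895 CPM, with overlapping groups.

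Regulators of the cotransporter counted 13 tested, 1 lower and 4 higher in both knockouts (7.69% and 30.8%, against 16.0% and 14.5% of all genes), with a median log2 fold change of 0.16. Stk39, the kinase SPAK that switches Slc12a1 on, read 775, 886, 567 and 695 CPM, lower in both knockouts. Sorl1, a sorting receptor, read 426, 494, 315 and 451 CPM, Mal, a membrane raft protein of the apical surface, 409.9, 353, 414 and 453 CPM, and Ppp3ca, a catalytic subunit of calcineurin, 334, 381, 321 and 383 CPM. Of those, only Mal kept the groups apart, by a small margin. The kinase gene Oxsr1 was listed at 0.

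Secreted proteins counted 7 tested, 2 lower and 1 higher in both knockouts (28.6% and 14.3%, against 16.0% and 14.5% of all genes), with a median log2 fold change of 0.06. Umod was highest in knockout 1 and lowest in knockout 2, with both controls between them, as given above, and Egf was highest in knockout 1 as well. Pkhd1, the polycystic kidney disease protein fibrocystin, read 3696, 4288, 3589.9 and 3993 CPM, and Spp1, osteopontin, 1336, 612, 1214 and 1249.6 CPM. Spp1 was lowest in control 2, and the other 3 mice lay close together.

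Paracellular genes, the claudins and their partners, counted 14 tested, 2 lower and 3 higher in both knockouts (14.3% and 21.4%, against 16.0% and 14.5% of all genes), with a median log2 fold change of -0.01. Cldn10 overlapped between genotypes, and so did Cgnl1, a junction scaffold, at 1221, 1576, 1131 and 1465 CPM. Ocln, the junction protein occludin, read 181, 199.6, 135 and 158 CPM, and Marveld2, tricellulin, 108, 107, 71.0 and 92.9 CPM, both lower in both knockouts. The genes of calcium and magnesium handling counted 15 tested, 2 lower and 4 higher (13.3% and 26.7%), with a median log2 fold change of 0.28. Casr, the calcium-sensing receptor, read 249, 589, 266 and 244 CPM, with control 2 above the other 3 mice. Tmem207 was higher in both knockouts, at an unadjusted edgeR p of 0.0448 (adjusted p = 1.00). Trpm7, a magnesium channel, read 299, 281, 313 and 395 CPM, higher in both knockouts, and Atp2b1, a calcium pump, 109.9, 148, 138 and 141 CPM, overlapping.

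Receptors and the cyclic AMP pathway counted 20 tested, 5 lower and 2 higher in both knockouts (25% and 10%, against 16.0% and 14.5% of all genes), none at unadjusted p under 0.05, with a median log2 fold change of -0.13. Erbb4 read 6717, 8410.3, 6272 and 6745 CPM, with control 2 highest. Ptger3, whose signal dampens salt transport, and Pde1a, a calcium-regulated phosphodiesterase at 1096, 1411, 995 and 1083 CPM, were lower in both knockouts. Pde4d, a phosphodiesterase specific to cyclic AMP, was higher in both, at 1161, 1117, 1654 and 1283 CPM. Near-empty droplets held 1380, 851, 2216 and 2052 CPM of Pde4d, also higher in both knockouts, and the part of free RNA was not tested. The prostaglandin list, which shares Ptger3, counted 12 tested, 3 lower and 1 higher (25% and 8.33%), with a median log2 fold change of -0.18. Ptges3, a prostaglandin synthase and cochaperone, read 56.2, 63.0, 77.7 and 86.7 CPM, Pla2g4a, a phospholipase, 46.3, 65.6, 50.3 and 49.2 CPM, and Ptgfr, the prostaglandin F receptor, 38.3, 49.8, 26.6 and 27.3 CPM. Ptgfr was lower and Ptges3 higher in both knockouts, and Pla2g4a overlapped.

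Transcription factors of the loop counted 27 tested, 5 lower and 3 higher in both knockouts (18.5% and 11.1%, against 16.0% and 14.5% of all genes), with 3 lower and 0 higher at unadjusted p under 0.05, where 2.13% and 1.37% of all genes were, and a median log2 fold change of -0.01. Esrrg, a nuclear receptor of energy metabolism, read 4307, 4504, 3773 and 5046 CPM, and Mecom, a zinc finger factor, 3095, 3508, 3197 and 3846 CPM, both overlapping between genotypes. Ppargc1a, the coactivator that drives mitochondrial genes, read 1821, 1766, 1175 and 1515 CPM, lower in both knockouts. Sim1, a PAS-family factor, read 1033, 884, 616 and 615 CPM, with both knockouts nearly equal and below both controls. Outside the naming rule and after its value was seen, Pax2, a kidney lineage factor, is given at 434, 514, 243 and 323 CPM, also lower in both knockouts.

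Energy metabolism, the supply line of a segment that pumps without pause, counted 27 tested, 4 lower and 5 higher (14.8% and 18.5%, against 16.0% and 14.5% of all genes), none at unadjusted p under 0.05, with a median log2 fold change of 0.25. Slc16a7, a carrier of lactate and pyruvate, read 1632, 2009, 1294 and 1412 CPM, lower in both knockouts. Ldhb, a lactate dehydrogenase subunit, read 1074, 633, 1331 and 918 CPM and overlapped. The list summed to 16042, 14167, 15200.2 and 16104 CPM. Near-empty droplets held 9458, 10624, 10031 and 10182 CPM of these genes, and the part of free RNA in the values was not tested.

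Genes of the response to concentrated surroundings counted 13 tested, 2 lower and 3 higher (15.4% and 23.1%, against 16.0% and 14.5% of all genes), with a median log2 fold change of -0.07. Nfat5, the transcription factor that drives this response, read 675, 689, 696 and 761 CPM, and Slc38a2, an amino acid carrier, 226, 215, 248 and 309 CPM, both a little higher in both knockouts. Akr1b3, the enzyme that makes sorbitol, read 117, 77.8, 86.6 and 79.2 CPM, and Gpcpd1, which breaks down a choline compound, 113, 130.2, 119 and 115 CPM, both overlapping. The list summed to 1431, 1337, 1427 and 1551 CPM in members, 1308, 1394, 1206 and 1353 CPM in Enox1-high nuclei.

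Injury genes were mostly near the floor. Of 16 tested, 3 were lower and 1 higher in both knockouts (18.8% and 6.25%, against 16.0% and 14.5% of all genes), none at unadjusted p under 0.05, with a median log2 fold change of -0.16. Beside Spp1, which healthy segments also make, Il34, a macrophage growth factor, read 116, 204, 119.9 and 124 CPM, Krt7, a keratin, 87.1, 81.0, 79.9 and 79.9 CPM, and Sox4, a transcription factor, 20.9, 51.3, 24.4 and 19.1 CPM. Il34 and Sox4 were highest in control 2. The defining injury markers Havcr1 and Lcn2, looked up after their values were seen, held 2, 11, 6 and 5 and 9, 2, 1 and 16 UMIs. Immediate early and heat shock genes counted 19 tested, 4 lower and 4 higher (21.1% and 21.1%), with a median log2 fold change of -0.07. The chaperones Hspa8 and Hsp90ab1 read 328, 206, 560.2 and 262 CPM and 298, 205, 388 and 234 CPM, higher in replicate 1 of each group, the libraries with more free RNA. Jund, a subunit of the AP-1 factor, read 117, 88.4, 107 and 81.9 CPM and followed the same split, and the part of free RNA in it was not tested.

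Polarity and adhesion genes counted 17 tested, 3 lower and 0 higher (17.6% and 0%, against 16.0% and 14.5% of all genes), with a median log2 fold change of -0.07. Pard3, a polarity scaffold, read 513, 609, 463 and 584 CPM, Cdh16, the kidney cadherin, 546, 359, 509 and 451 CPM, and Patj, another polarity scaffold, 287, 349, 296 and 315 CPM, all overlapping. Itgb6, an integrin subunit, read 330.3, 497, 310.1 and 221 CPM, lower in both knockouts. Wnt pathway genes counted 29 tested, 5 lower and 1 higher (17.2% and 3.45%), none at unadjusted p under 0.05, with a median log2 fold change of -0.14. Lgr4, a receptor that strengthens Wnt signals, read 469, 467, 371 and 362 CPM, lower in both knockouts. Tcf7l2, the transcription factor at the end of the pathway, read 308, 401, 337 and 498 CPM, Lrp6, a coreceptor, 268, 336, 264 and 279 CPM, and Znrf3, a receptor-removing ligase, 254, 365, 251 and 300.5 CPM, all overlapping.

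The small lists of the stretches themselves had few genes to test. Of 6 cortical genes tested, 0 were lower and 3 higher in both knockouts (0% and 50%, against 16.0% and 14.5% of all genes), with a median log2 fold change of 0.36. Wnk1, a kinase above Stk39, read 223, 211, 310.1 and 251 CPM, Kcnj10, a basolateral potassium channel, 61.2, 60.9, 65.1 and 73.7 CPM, Kng2, a kininogen, 876, 1049, 858 and 1071 CPM, and Pth1r, the parathyroid hormone receptor, 121, 61.4, 178 and 60.1 CPM. Wnk1 and Kcnj10 were higher in both knockouts, by small margins, and Pth1r was higher in replicate 1 of each group. Cldn16, at the levels given with the markers, was also higher in both knockouts. The cortical list, the genes of the rule included, summed to 1698, 1858, 1994 and 2022 CPM in members, higher in both knockouts. Of 5 medullary genes tested, 1 was lower and 1 higher (20% and 20%), with a median log2 fold change of 0.03.

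Markers of other cell types were counted over whole lists, to show how much of their RNA the members held. The 12 proximal tubule genes, all tested, summed to 20907, 8934, 28369 and 5216 CPM, of which Kap, an androgen-regulated kidney gene, made up 18034, 7175, 24647 and 3554 CPM. That sum was higher in replicate 1 of each group and lowest in knockout 2, no gene of the list separated the genotypes, and the median log2 fold change was 0.18. Thin limb genes summed to 617, 364, 574 and 416 CPM, mostly Cryab, with 9 tested, 2 lower and 0 higher (22.2% and 0%, against 16.0% and 14.5% of all genes) and a median of -0.57. Distal convoluted and connecting tubule genes summed to 466, 338, 406 and 245 CPM, with Sgms2, a sphingomyelin synthase, at 179.6, 254, 143 and 137 CPM, with 7 tested, 1 lower and 1 higher (14.3% and 14.3%). Principal cell genes summed to 143, 126, 124 and 94.2 CPM, with Fxyd4, a regulator of the sodium pump, at 25.9, 27.0, 19.2 and 15.7 CPM, 9 tested, 1 lower and 1 higher (11.1% and 11.1%). Intercalated cell genes summed to 115, 26.5, 65.1 and 39.6 CPM, with the proton pump subunit Atp6v1g3 at 33.3, 10.1, 34.0 and 17.8 CPM, with 8 tested and none apart by genotype. The median log2 fold change was 0.15 in the distal convoluted and connecting list, -0.36 in the principal and -0.81 in the intercalated list.

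Genes listed for cells outside the tubule had little RNA in members, apart from Magi2. The counts below stand against 16.0% of all genes lower and 14.5% higher in both knockouts. Endothelial genes summed to 149, 122, 91.8 and 92.2 CPM, with 4 of 7 tested lower in both knockouts (57.1%), the homeobox factor Meis2 at 46.8, 34.9, 22.2 and 25.9 CPM and the vessel wall protein Plvap at 24.4, 24.3, 12.6 and 5.46 CPM among them. Interstitial genes summed to 48.3, 52.9, 45.1 and 17.8 CPM, with 3 of 8 lower (37.5%). Immune genes summed to 108, 129, 131 and 137 CPM, with the lymphocyte adaptor Skap1 at 61.2, 66.2, 55.5 and 90.8 CPM, and 0 of 6 lower and 1 higher (0% and 16.7%). Skap1 was found in 10.1, 11.8, 8.84 and 13.5% of members and 10.0, 13.2, 9.38 and 14.8% of Enox1-high nuclei. In proximal tubule reference nuclei it was found in 1.02, 1.69, 1.16 and 0.897%, so it was more widespread in the thick ascending limb. Podocyte genes summed to 2201, 2444, 1778 and 2466 CPM, nearly all of it Magi2 at 2165, 2403, 1771 and 2445 CPM, a scaffold that the members themselves carried, with 4 of 6 lower (66.7%). The median log2 fold change was -0.53 in the endothelial, -0.54 in the interstitial, -0.11 in the immune and -1.20 in the podocyte list. Over all genes it was 0.00. No gene of these other-cell lists was at 0 in all mice. The part of these cells in the genotype differences of the members was not tested.

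The last comparison asked whether the genotype difference in members was itself different from that in other nuclei of the same mice, by an edgeR term for class and genotype with the mouse as a factor. Against Enox1-high nuclei, 0 of 13651 genes had a lower (0%) and 1 a higher (0.00733%) log2 fold change in members, with 290 and 310 before adjustment. The gene was Cryab, a small heat shock protein abundant in the thin limb and inner medulla. It read 488, 243, 457 and 347 CPM in members, where the groups overlapped, and 547, 372, 271 and 214 CPM in Enox1-high nuclei, where both knockouts were lower. The difference of the log2 fold changes was 1.10 (standard error 0.13, edgeR adjusted p = 5.80e-05). Much of its RNA sat in few nuclei: the 5 richest members of each mouse held 247, 136, 256 and 182 of 981, 459, 617 and 508 UMIs. Near-empty droplets held 2032, 1643, 1082 and 2801 CPM, above the members in every mouse, and the part of free RNA was not tested. For Sgcz the difference was -0.39 (standard error 0.20, adjusted p = 0.999), so a difference between members and Enox1-high nuclei was not shown for it.

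Against the proximal tubule reference as first set, 0 of 14122 genes differed in either direction (0%), with 266 lower and 404 higher before adjustment, and edgeR with its own filter on low counts also called 0. That first gate let in nuclei of the distal nephron, so a stricter gate, chosen after seeing the data, was added: it left out Kap and nuclei with over 2 UMIs of Aqp2, Slc12a3 or Slc8a1. With it, 2 of 13959 genes had a lower (0.0143%) and 1 a higher (0.00716%) log2 fold change in members. For Sgcz the difference was -4.29 (standard error 0.32, edgeR adjusted p = 0.000363), the reference holding only 7.56, 8.74, 4.57 and 6.74 CPM. For Ubash3b, a phosphatase-like regulator of receptor signalling, members read 193, 188, 205 and 199 CPM, nearly level across mice, and the reference 31.3, 31.6, 92.0 and 113 CPM, higher in both knockouts. Its difference was -1.59 (standard error 0.20, adjusted p = 0.0289). So of the genes called in members, Sgcz alone passed a test of the difference from proximal tubule nuclei.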

How the data were processed

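The deposited files held raw UMI counts per gene and barcode for all barcodes of 4 libraries, which the authors made with Cell Ranger 3.0.2 against mm10, per the submitters' processing notes. The 10000 deepest barcodes of every library were taken, and those with more than 500 and under 4000 genes and under 5% mitochondrial UMIs were kept. Doublets were scored with Scrublet in scanpy 1.11.5 (Python 3.11.15) at an expected 0.8% per 1000 nuclei. The highest scores of each library, up to that expected share, were called as doublets, and those nuclei stayed in the main values. Member counts were summed per mouse. They were tested in edgeR 4.0.16 (R 4.3.3) by TMM normalization, a quasi-likelihood fit and Benjamini-Hochberg adjustment over genes with at least 10 UMIs. The 6 genes of the rule stayed in library sizes and were not tested. Differences between nuclei of the same mice used class and mouse as terms. Shares were compared by a two-sided exact permutation test over mice. DESeq2 1.42.0, other filters, stricter rules, thinning, doublets left out, estimated free RNA subtracted, the replicate number as a block and each mouse left out were tried as alternatives. The fits were tested on simulated data.

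Named genes were the markers of the rule, Tfap2a and Tfap2b, from each of 28 lists up to 4 tested genes with the highest control CPM, the called genes, and, with fewer than 5 calls in a direction, the 8 genes with the lowest unadjusted p for which both knockouts lay on one side of both controls. Of 124 such genes, 122 had coordinates in the RefSeq table of GRCm38.p6, which is the same build as mm10. The members and lists were chosen with earlier results of these data known. Some genes that the naming rule reached are not reported here.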

Additional observations from a re-analysis of the deposited data

Results flagged for a closer look

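Cryab is given here because its genotype difference in members differed from that in Enox1-high thick ascending limb nuclei: the log2 fold changes were 1.10 apart (edgeR adjusted p = 5.80e-05), and 0.89 to 1.36 apart with any 1 mouse left out. Sgcz and Ubash3b are given because their genotype differences in members differed from those in proximal tubule reference nuclei under the stricter gate, by -4.29 and -1.59 on the log2 scale. Under the first gate those differences were -3.65 and -1.48, and neither passed the test. No explanation of these values was tested.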

How the results depend on the processing

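The count of genes called in members depended strongly on the setting. Against 2 lower and 1 higher among 14162 genes, edgeR's own filter (11284 genes) gave 0 and 0, no filter 43 and 18, at least 6 Slc12a1 UMIs 1 and 0, thinning to 1000 UMIs 1 and 0, and DESeq2 3 and 3. Members under 1% mitochondrial UMIs, doublets left out and free RNA subtracted each gave 0 and 0, as did leaving out members above the median of their library in proximal tubule UMIs, chosen after seeing the data. With the replicate number as a block, although the labels give no pairing (the replicate differences of the 2 groups correlated at 0.467 over genes), the counts were 67 (0.473%) and 26 (0.184%). With 1 mouse left out, the lone mouse being assumed to vary like the other group, they ran from 2 to 34 lower and from 3 to 32 higher. The cause was not tested. Leaving out members with UMIs of other cell types left 0, 6, 0 and 202 nuclei and could not be run.

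Leaving out 1 mouse moved the count of genes differing between members and Enox1-high nuclei, 0 lower and 1 higher, to between 1 and 9 lower and between 1 and 11 higher. Against the proximal tubule reference, 0 and 0, it gave 0 to 72 lower and 0 to 319 higher, and the stricter gate, chosen after seeing the data, gave 2 and 1. Within that reference the stricter gate gave 1 lower gene instead of 0. The cause was not tested.

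The share difference of -4.31 percentage points was -6.88 among nuclei outside the proximal tubule gate and -3.39 outside the stricter gate, chosen after seeing the data, and the cause was not tested. With 1 mouse left out it ran from -6.31 to -2.31. For 18 genes, Tfap2a, Tfap2b and the 16 with the lowest unadjusted p, none of 283 alternative values reversed direction, 18 lost and 49 gained a call. Of 448 list medians under alternatives, 345 moved by less than the spread between replicates.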

Other observations

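Each group held 2 mice, and a p above the threshold does not show that levels were equal. The tests compare sums over nuclei, so a change in a small set of members and a small change in all of them read alike. The rule keeps nuclei by a few UMIs, and free RNA, which differed between libraries, adds to every level given. Counting from the 3′ end gives no view of splicing or of the floxed exons. Time of day is not in the labels. The paper calls the controls littermates, and the labels do not say which of the 4 mice shared a litter.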
